A study of Mus musculus with 17 samples.

Results

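The genes described here are 43 genes of the blood vessel wall, chosen by name from 55450 gene rows: 20 endothelial genes, 7 genes of barrier transport, 9 genes of mural cells and 7 genes of the collagen matrix around vessels. All 43 were found by matching Ensembl gene IDs to symbols, and 42 passed the filter on low counts that left 17615 genes for testing. Polyadenylated RNA of the hippocampus was sequenced from adult mice in 3 groups. The control sgLacZ group (n = 5) consisted of sham controls, while the epileptic sgLacZ group (n = 6) and the epileptic sgKcna1 group (n = 6) had kainic acid, a glutamate receptor agonist that provokes status epilepticus, injected into the right amygdala. All groups were wild-type C57BL/6J mice of both sexes that received adeno-associated viruses in the right ventral hippocampus and doxycycline in the diet, and they therefore share the dCas9-VP64 transcriptional activator. The guide RNA was sgLacZ, which has no mouse target, or sgKcna1, which directs the activator to the promoter of the potassium channel gene Kcna1. A Camk2a promoter biased the activator to excitatory neurons, so that vascular cells were not the cells targeted.

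Brain endothelial cells are joined by tight junctions and carry selective transporters, and this wall is known as the blood-brain barrier. Pericytes and smooth muscle cells, together called mural cells, lie outside the endothelium in a basement membrane built on type IV collagen, while fibrillar collagens and the proteoglycans decorin and lumican come mainly from perivascular and meningeal fibroblasts. Seizures are known to open the barrier and to raise leukocyte adhesion molecules on the endothelium.

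Libraries held between 11839240 and 28311328 reads in genes, so that 3 reads correspond to between 0.106 and 0.253 CPM, the count scaled to a common library size, and 10.997% to 41.471% of reads were not mapped. Counts did not depend on strand, with a ratio of reverse to forward counts of 0.994 to 0.998, and reads of overlapping genes on opposite strands cannot be told apart. By the higher of Xist and Y-linked genes, 2 of 5 control sgLacZ, 4 of 6 epileptic sgLacZ and 2 of 6 epileptic sgKcna1 libraries were female. The rest were male, so that sex was not balanced between groups. Of the 17 libraries 6, 2 control sgLacZ, 1 epileptic sgLacZ and 3 epileptic sgKcna1, held more than 2 CPM of both Xist and Y-linked genes. Kcna1 itself ranged over 16.9 to 56.7 CPM (median 27.6) in epileptic sgLacZ and 13.9 to 132.5 CPM (median 19.1) in epileptic sgKcna1, so that the sgKcna1 median was the lower one. The highest value came from the 1 of 6 sgKcna1 libraries that lay above every epileptic sgLacZ library (log2 fold change 0.32 ± 0.47, SE, edgeR adjusted p = 0.706). The 8 neuronal markers summed to between 7126 and 9613 CPM. The sum of the 12 choroid plexus markers varied from 303 to 12749 CPM.

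The pair of type IV collagen genes illustrates how closely some members are linked in the genome. Col4a1 and Col4a2 lie head to head on chromosome 8, and their promoter windows (RefSeq, GRCm38.p6, 250 bases before to 50 bases after the annotated start, each read 5′ to 3′ on its own strand) share 78 bases. Windows were found for 28 of the 43 members. The windows of the 2 collagen genes, chr8:11312777-11313076 on the minus strand and chr8:11312555-11312854 on the plus strand, are shown because both genes were called and correlated across libraries. Capitals mark the shared bases.
Col4a1: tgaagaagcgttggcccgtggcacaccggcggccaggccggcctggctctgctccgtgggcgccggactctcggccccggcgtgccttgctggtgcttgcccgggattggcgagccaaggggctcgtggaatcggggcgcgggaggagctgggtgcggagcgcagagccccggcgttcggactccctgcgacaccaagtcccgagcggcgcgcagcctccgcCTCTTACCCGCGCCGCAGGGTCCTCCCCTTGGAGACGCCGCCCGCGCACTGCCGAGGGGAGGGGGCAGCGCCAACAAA
Col4a2: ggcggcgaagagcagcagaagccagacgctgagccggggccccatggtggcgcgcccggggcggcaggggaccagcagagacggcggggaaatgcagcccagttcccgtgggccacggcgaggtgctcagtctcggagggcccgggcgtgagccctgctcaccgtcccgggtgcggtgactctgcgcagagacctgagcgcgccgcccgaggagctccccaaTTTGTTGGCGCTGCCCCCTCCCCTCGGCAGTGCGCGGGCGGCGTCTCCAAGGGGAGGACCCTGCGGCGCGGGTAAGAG

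The promoter of Abcb1a (chr5:8566841-8567140, plus strand) is shown because Abcb1a had the smallest p of all members and because Erg, another member called, encodes a factor of the ETS family, whose sites are built around GGAA. Capitals mark AGGAAG on either strand, which reads CTTCCT where it lies on the other strand. It occurred 2 times in this window. The motif was present in 35.4% of all 32851 promoter windows, and 10 of the 28 members with a window (35.7%) held it in at least 1 window, against 38.4% of all genes with a window.
Abcb1a: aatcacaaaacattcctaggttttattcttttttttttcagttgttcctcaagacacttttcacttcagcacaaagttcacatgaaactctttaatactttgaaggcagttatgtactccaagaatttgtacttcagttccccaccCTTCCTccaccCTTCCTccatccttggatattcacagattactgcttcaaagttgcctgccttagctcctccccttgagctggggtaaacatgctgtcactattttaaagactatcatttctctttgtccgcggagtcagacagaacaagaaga

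Levels of the members spanned more than 2 orders of magnitude. In control sgLacZ, on the scale of CPM per kilobase of transcript, the highest mean levels were those of Cldn5, the main tight junction claudin of brain endothelium (89.1 ± 13.6, SD, n = 5), the proteoglycan gene Dcn (59.5 ± 20.2), the pericyte gene Vtn (58.4 ± 7.97), Ly6c1 (48.8 ± 6.90) and the glucose transporter gene Slc2a1 (42.4 ± 3.38). The means of Dcn and Vtn differed by less than their SDs, and those of Ly6c1 and Slc2a1 by less than the SD of Ly6c1. At the low end stood Icam1 (0.389 ± 0.147), Myh11 (0.351 ± 0.0664) and Abcc9 (0.409 ± 0.0872), whose means also differed by less than their SDs. Members were detected in every library apart from Tagln, a smooth muscle gene counted at 0 to 6 reads. Tagln overlaps Pcsk7 on the other strand, reads counted by strand exceeded the unstranded count 143-fold, and the gene was not tested.

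**Figure D1:**
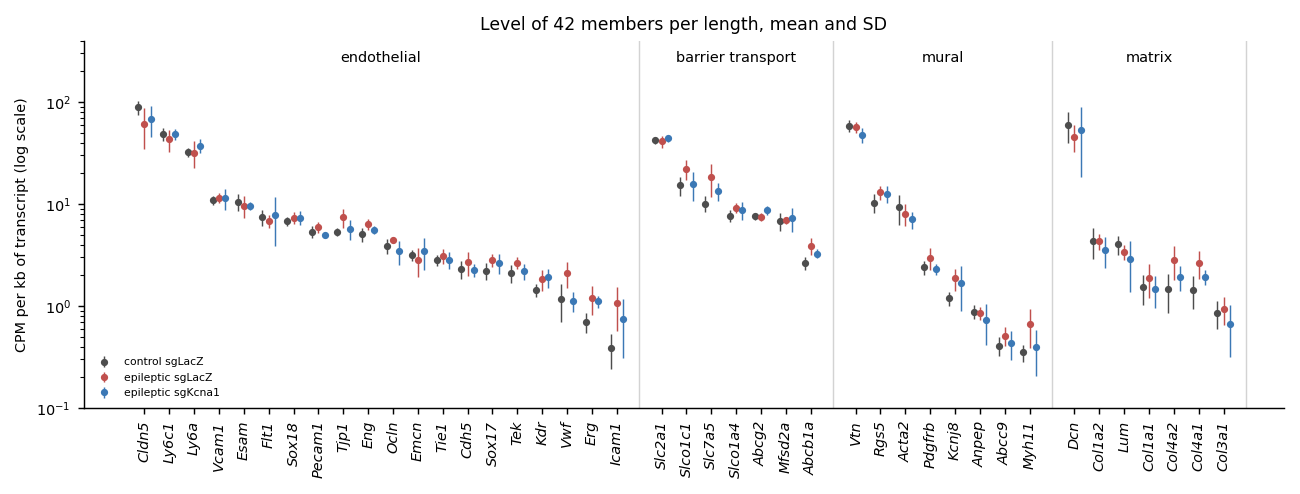
Mean level of the 42 members tested in CPM per kilobase of transcript (log scale) with SD, for control sgLacZ (n = 5), epileptic sgLacZ (n = 6) and epileptic sgKcna1 (n = 6), by class. Cldn5, Dcn and Vtn stand highest, and Icam1, Abcc9 and Myh11 lowest in control sgLacZ.

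The first comparison asked how the epileptic hippocampus differed from control tissue under the same guide. Of the 42 members tested, 7 were higher in epileptic sgLacZ than in control sgLacZ and none was lower at an adjusted p below 0.05 (edgeR quasi-likelihood test, Benjamini-Hochberg over all genes): Erg, Vwf and Icam1 of the endothelial genes, Slc7a5 and Abcb1a of the transporters, and Col4a1 and Col4a2 of the matrix. This is 16.7% of the members, where 11.0% of all genes tested were called, and 7.26% were called higher. At an unadjusted p below 0.05, 13 members were higher and 1 was lower (33.3%), where the shares of all genes were 34.7% in all, 18.8% higher and 15.9% lower. Members called had adjusted p between 0.033 and 0.045, and the next member, Tjp1, stood at 0.0625. The median log2 fold change was 0.18 for the 20 endothelial genes, 0.26 for the 7 transporters, 0.31 for the 8 mural genes and 0.14 for the 7 matrix genes, where the median over all genes was 0.02. In bulk tissue, a change in the number of vascular cells and a change in the RNA of each cell cannot be told apart.

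Among the endothelial genes, Erg, an ETS transcription factor of endothelial cells (chromosome 16, 95359169 to 95586600, GRCm38.p6), was measured at 1.73, 2.18, 2.30, 2.37 and 3.19 CPM in the 5 control sgLacZ libraries. In epileptic sgLacZ it ran from 2.66 to 5.99 CPM with a median of 4.16. Of the 6 epileptic libraries 4 lay above all controls, and the change was 0.76 ± 0.22 on the log2 scale (SE, adjusted p = 0.0423). Vwf, the gene of von Willebrand factor, which endothelial cells store and release for platelet adhesion (chromosome 6, 125552948 to 125686679), had 6.06, 6.84, 9.41, 13.9 and 15.5 CPM in controls. The epileptic sgLacZ libraries held 13.1 to 26.9 CPM with a median of 17.9. Here the groups overlapped, with 3 of 6 epileptic libraries above every control, and the log2 fold change was 0.85 ± 0.25 (adjusted p = 0.0414). Icam1, a leukocyte adhesion molecule (chromosome 9, 21015940 to 21028814), was low throughout, at 0.466, 0.920, 1.00, 1.04 and 1.52 CPM in controls and 0.835 to 4.59 CPM (median 2.78) in epileptic sgLacZ. In 5 of 6 epileptic libraries it exceeded all controls (log2 fold change 1.43 ± 0.44, adjusted p = 0.0450). The Icam1 count is uncertain, because counts summed over strands were 2.13 times the unstranded count, and with strand counts added the change was 0.74 with an adjusted p of 0.069.

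The remaining 17 endothelial genes were not called in the edgeR fit of all 17 libraries. Of these, Tjp1 was called with DESeq2, with edgeR on the 2 groups alone and with limma-voom and quality weights, and Cldn5 and Sox17 with limma-voom. Tjp1, the junction scaffold ZO-1, was named after its values were seen, because it was the sole endothelial gene without overlap: controls held 31.5 to 40.2 CPM and epileptic sgLacZ libraries 43.0 to 71.5 CPM (log2 fold change 0.47 ± 0.16, edgeR adjusted p = 0.0625). Over all genes, 4.39% did not overlap between these groups, and 2 of 42 members (4.76%) did not. Cldn5, also named after its values were seen, was the endothelial gene with the most negative value. Its 5 control libraries ran from 101 to 145 CPM, 4 of 6 epileptic sgLacZ libraries lay below them and 1 above, and the log2 fold change was −0.54 ± 0.25 (adjusted p = 0.135). The Cldn5 transcript is short (1414 bases) and that of Tjp1 long (7049 bases). The part of transcript length in both values was not tested. The adhesion genes Pecam1 (0.15 ± 0.11, adjusted p = 0.329) and Cdh5 (0.24 ± 0.19, adjusted p = 0.373), and Kdr, the main VEGF receptor (0.34 ± 0.18, adjusted p = 0.188), had log2 fold changes that did not pass the test. Vcam1, the adhesion molecule commonly paired with Icam1, had a log2 fold change of 0.09 ± 0.14.

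Of the transporters, Abcb1a, which encodes the drug efflux pump P-glycoprotein (chromosome 5, 8567091 to 8748575), was measured at 10.8, 11.7, 13.2, 15.0 and 15.4 CPM in control sgLacZ. In epileptic sgLacZ it ran from 15.6 to 25.7 CPM with a median of 18.7. Every epileptic sgLacZ library therefore exceeded every control, with a log2 fold change of 0.56 ± 0.14 (adjusted p = 0.033). Slc7a5, the large neutral amino acid transporter LAT1 (chromosome 8, 121881146 to 121907686), had 26.9, 31.2, 38.6, 38.8 and 42.1 CPM in controls and 35.2 to 103 CPM in epileptic sgLacZ, with a median of 63.8. Values of 5 of 6 epileptic libraries were above all controls (log2 fold change 0.86 ± 0.21, adjusted p = 0.0333). Slco1c1, a thyroid hormone carrier that astrocytes express too, held 33.1, 34.2, 38.5, 49.2 and 52.1 CPM in controls and 36.0 to 73.0 CPM (median 60.6) in epileptic sgLacZ, and did not pass the edgeR test (0.54 ± 0.22, adjusted p = 0.0889), though limma-voom called it. Slc2a1, Abcg2 and Mfsd2a had log2 fold changes between −0.05 and 0.04. The 7 transporters together summed to 256 to 272 CPM in control sgLacZ and 285 to 372 CPM in epileptic sgLacZ. In CPM, the means rose most for Slc7a5 (35.5 to 64.2) and Slco1c1 (41.4 to 60.2), while that of Slc2a1, the largest, went from 110.6 to 107.1. The sums of the other member lists overlapped between these groups. They were 415 to 516 and 409 to 557 CPM for endothelial, 156 to 215 and 190 to 213 for mural, and 88.7 to 202 and 130 to 182 for matrix genes.

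No mural gene was called in the edgeR fit of all 17 libraries. DESeq2 called Myh11, edgeR on the 2 groups alone called Kcnj8, and limma-voom called Rgs5, Kcnj8 and Myh11. The smallest p belonged to Myh11, the smooth muscle myosin heavy chain, which was at 1.79, 2.00, 2.34, 2.73 and 2.79 CPM in controls and 2.03 to 6.57 CPM in epileptic sgLacZ (median 4.55). It exceeded all controls in 4 of 6 epileptic libraries (log2 fold change 0.91 ± 0.33, edgeR adjusted p = 0.0703, DESeq2 adjusted p = 0.0397). The other smooth muscle gene among the members tested, the actin gene Acta2, had a log2 fold change of −0.20 ± 0.20. More smooth muscle genes, such as Cnn1 and Lmod1, are counted among the 19 further mural genes below. Among pericyte genes, Rgs5, a regulator of G protein signalling, held 30.2, 40.6, 41.1, 46.6 and 53.5 CPM in controls and 41.96 to 64.2 CPM (median 54.4) in epileptic sgLacZ (0.33 ± 0.15, adjusted p = 0.129). Pdgfrb, the receptor through which pericytes are recruited to vessels, held 10.4, 11.5, 13.5, 14.3 and 15.3 CPM in controls and 12.5 to 23.7 CPM (median 15.0) in epileptic sgLacZ (0.30 ± 0.16, adjusted p = 0.172). For both, 3 of 6 epileptic libraries were above all controls. With the length trend of each library removed these changes were 0.16 for Rgs5 and 0.10 for Pdgfrb, Rgs5 stood at 0.08 in male libraries, and Pdgfrb at 0.16 without epileptic sgLacZ replicate 4. Vtn and Anpep had log2 fold changes of −0.04 ± 0.12 and −0.05 ± 0.26.

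In the matrix, the type IV collagen genes were called and the fibrillar collagens and proteoglycans were not. Col4a1 (chromosome 8, 11198423 to 11312889) was at 5.09, 7.49, 9.55, 12.7 and 13.1 CPM in controls, and epileptic sgLacZ libraries ran from 11.1 to 24.6 CPM with a median of 18.1 (log2 fold change 0.88 ± 0.24, adjusted p = 0.0366). Col4a2 (chromosome 8, 11312805 to 11449287) was at 7.00, 7.03, 8.13, 8.86 and 16.3 CPM in controls and 9.14 to 27.8 CPM (median 18.8) in epileptic sgLacZ (0.94 ± 0.29, adjusted p = 0.0450). For each gene 4 of 6 epileptic libraries were above all controls. Col1a1 had the smallest p of the others, at 5.89, 6.17, 9.66, 11.1 and 12.5 CPM in controls and 6.74 to 18.03 CPM (median 10.7) in epileptic sgLacZ (0.30 ± 0.28, adjusted p = 0.469, and 0.08 with the length trend removed). Dcn and Lum had negative values (−0.38 ± 0.40 and −0.26 ± 0.28). Choroid plexus markers summed to 1234 to 12749 CPM in controls and 4602 to 11680 CPM in epileptic sgLacZ, and the leptomeningeal list to 255 to 444 and 271 to 410 CPM, with all 12 and all 15 genes detected. Their part in the matrix values was not tested.

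**Figure D2:**
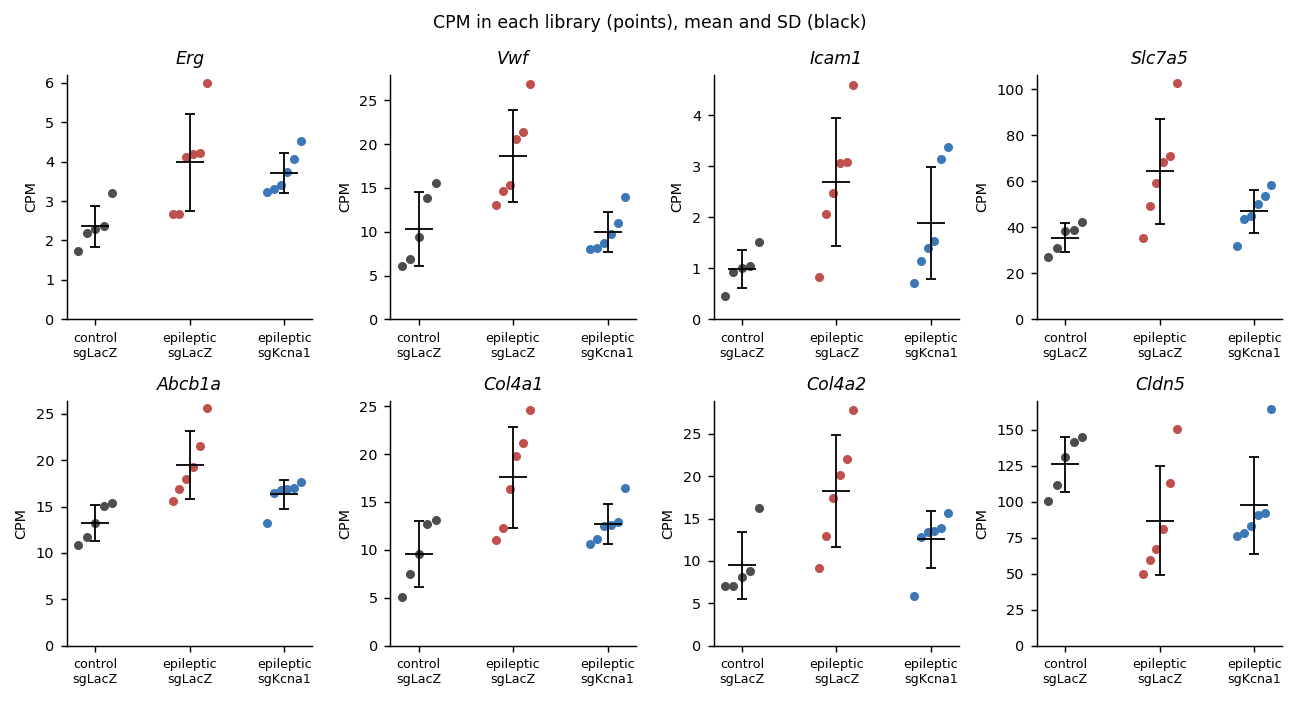
CPM of the 7 members called between epileptic sgLacZ and control sgLacZ, and of Cldn5, in each library (points) with mean and SD, for control sgLacZ (n = 5), epileptic sgLacZ (n = 6) and epileptic sgKcna1 (n = 6). Abcb1a is the one panel in which all epileptic sgLacZ libraries lie above all controls, and the sgKcna1 mean lies between the other means in each panel except Vwf.

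These 7 calls rest on few libraries. Leaving out 1 library at a time, no gene of the series was called in 7 of 17 fits, those without control sgLacZ replicate 13, 14, 16 or 23 or epileptic sgLacZ replicate 4, 7 or 9, although 4557 to 5793 genes then had an unadjusted p below 0.05. Without epileptic sgLacZ replicate 5, 11 members were called, 10 higher and Cldn5 lower. Without epileptic sgKcna1 replicate 12 also 11 were called, all higher. Without control sgLacZ replicate 15 the count was 4, and without epileptic sgKcna1 replicate 10 and 3 it was 3 and 4. Without the 6 libraries that held both Xist and Y-linked reads no gene was called, with 6540 genes at an unadjusted p below 0.05. The controls left in that fit were the 3 male ones, while 4 epileptic sgLacZ libraries were female, so that group and sex were largely confounded. In male libraries alone the log2 fold changes were 0.36 for Abcb1a, 0.82 for Slc7a5, 0.90 for Col4a1, 0.70 for Col4a2, 0.79 for Vwf, 0.40 for Erg and 1.73 for Icam1, and Slc7a5 alone was called. In female libraries alone they were 0.74, 0.78, 0.72, 1.29, 0.87, 1.11 and 1.51 in the same order, and no member was called. The male values rest on 3 control and 2 epileptic sgLacZ libraries, and the female values on 2 control and 4 epileptic sgLacZ libraries.

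The changes of the members moved with transcript length. Across the 42 members, Spearman's rho between log2 fold change and transcript length was 0.56 in epileptic sgLacZ against control sgLacZ, and it was 0.38 across the 14619 genes tested whose length was known. The 21 longer members had a median log2 fold change of 0.32 and the 21 shorter ones of −0.01. These are correlations across genes of the same libraries, given as a description. Within a library, the slope of log2 CPM (as deviation from the mean) on log2 length lay between −0.17 and −0.05 in the 5 control libraries and between −0.15 and 0.38 in epileptic sgLacZ. Epileptic sgLacZ replicate 4 had the highest slope and the smallest share of unmapped reads (10.997%), and it was the highest of its group in 18 of 42 members. With the length trend of each library removed, 4 members were called, Icam1 (log2 fold change 1.37), Slc7a5 (0.69), Abcb1a (0.36) and Col4a1 (0.66), while Vwf (0.63, adjusted p = 0.054), Erg (0.61, adjusted p = 0.054) and Col4a2 (0.71, adjusted p = 0.064) were not. With the share of unmapped reads as a covariate the log2 fold changes were 0.51 for Slc7a5, 0.47 for Col4a2, 0.56 for Myh11 and 0.27 for Slco1c1. Myh11, long, and Acta2, short, are a pair of smooth muscle genes at opposite sides of this relation. Whether length or RNA quality set any of these values was not tested.

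**Figure D3:**
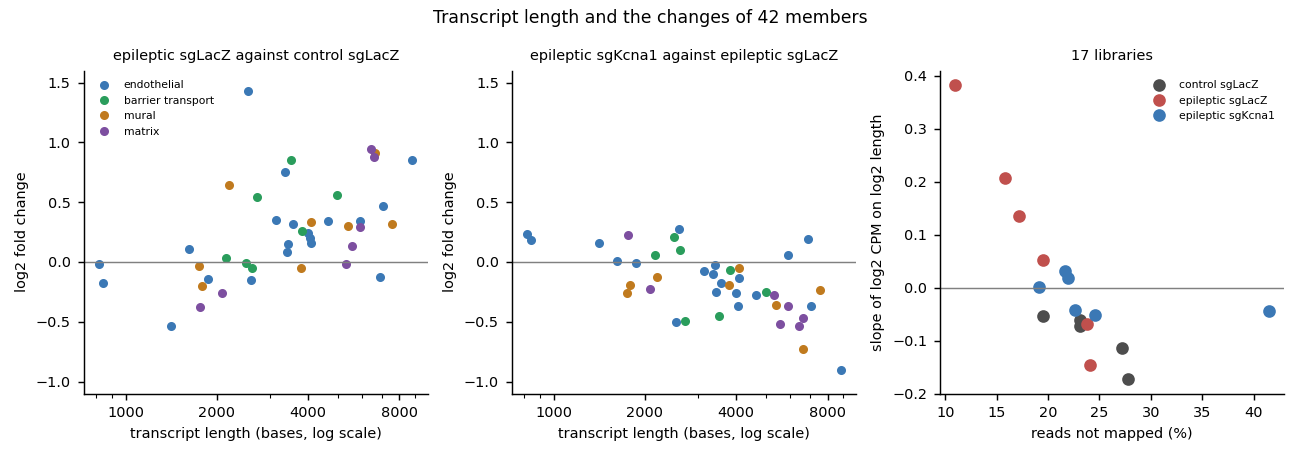
Left and middle, log2 fold change of the 42 members against transcript length (log scale) in the comparisons named above each panel. Right, the slope of log2 CPM on log2 transcript length against the share of reads not mapped in the 17 libraries, where epileptic sgLacZ replicate 4 is the point at 0.38.

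The next comparison asked whether vascular genes differed between epileptic mice that received sgKcna1 and those that received sgLacZ. No member and no gene was called between epileptic sgKcna1 and epileptic sgLacZ with edgeR (0.0% of 17615 genes, 3387 at an unadjusted p below 0.05). DESeq2 called 143 genes and 1 member, Vwf, and limma-voom with quality weights called 12 genes and no member. At an unadjusted p below 0.05, 1 member was higher and 10 were lower (26.2% of 42), where the shares of all genes were 19.2% in all, 8.69% higher and 10.5% lower. Median log2 fold changes were −0.09 for endothelial genes, −0.07 for transporters, −0.21 for mural genes and −0.37 for matrix genes, and all 8 mural genes had negative values, none of them called. Of 19 further mural genes, listed below, 10 had positive and 9 negative values, with a median of 0.02. Every member overlapped between these groups, where 0.483% of all genes did not.

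Vwf had the smallest p. Its sgKcna1 libraries ran from 8.06 to 14.0 CPM with a median of 9.21, where epileptic sgLacZ ran from 13.1 to 26.9 CPM, and 5 of 6 lay below every epileptic sgLacZ library (log2 fold change −0.91 ± 0.23, unadjusted p = 0.00109, adjusted p = 0.213). Occludin (Ocln), a tight junction protein, was at 10.2 to 18.8 CPM (median 12.6) in sgKcna1 and 16.2 to 19.3 CPM (median 18.3) in epileptic sgLacZ (−0.37 ± 0.15, adjusted p = 0.226). Pecam1 was at 15.4 to 19.2 CPM (median 17.1) and 17.5 to 24.9 CPM (median 20.1) in the same order (−0.25 ± 0.10, adjusted p = 0.231). For both genes 4 of 6 sgKcna1 libraries were below all epileptic sgLacZ libraries.

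Transporters differed among themselves in sign. Slco1c1 was at 22.4 to 61.6 CPM (median 43.4) in sgKcna1, with replicate 12 lowest, against 36.0 to 73.0 CPM (median 60.6) in epileptic sgLacZ (−0.49 ± 0.20, adjusted p = 0.228). Slc7a5 was at 31.7 to 58.3 CPM (median 47.5) against 35.2 to 103 CPM (median 63.8) (−0.45 ± 0.20, adjusted p = 0.242). Abcg2, the efflux pump known as breast cancer resistance protein, was at 19.0 to 24.6 CPM (median 21.2) against 16.2 to 21.1 CPM (median 18.8), with 4 of 6 sgKcna1 libraries above all epileptic sgLacZ libraries (0.21 ± 0.09, adjusted p = 0.243). In the mural list, Pdgfrb was at 11.0 to 15.3 CPM with a median of 12.3 in sgKcna1, against a median of 15.0 (−0.36 ± 0.15, adjusted p = 0.228). Of its 6 values 3 lay below all epileptic sgLacZ libraries, as did 4 of 6 for Myh11, which was at 1.67 to 4.37 CPM with a median of 1.97 (−0.73 ± 0.31, adjusted p = 0.234). Vtn, encoding the adhesive glycoprotein vitronectin, was at 67.3 to 97.7 CPM (median 84.7) against 81.9 to 118 CPM (median 98.0) (−0.26 ± 0.12, adjusted p = 0.245). In the matrix, Col4a1 was at 10.6 to 16.5 CPM with a median of 12.5 (−0.47 ± 0.22, adjusted p = 0.258) and Col4a2 at 5.88 to 15.6 CPM with a median of 13.5 (−0.53 ± 0.27, adjusted p = 0.277). For each, 1 of 6 sgKcna1 libraries lay below all epileptic sgLacZ libraries. Col3a1, a fibrillar collagen, had a median of 3.68 CPM and a highest value of 6.07 CPM in sgKcna1, against 4.73 and 8.02 CPM, with 3 of 6 below all epileptic sgLacZ libraries (−0.51 ± 0.32, adjusted p = 0.355). Several of these differences were smaller under other fits. With the share of unmapped reads as a covariate the log2 fold change was −0.01 for Col4a2, −0.05 for Slc7a5, −0.20 for Col4a1, −0.22 for Slco1c1 and −0.35 for Myh11. With the length trend removed it was −0.21 for Pdgfrb, −0.17 for Pecam1, −0.30 for Col4a1 and −0.35 for Col4a2, and without epileptic sgLacZ replicate 4 it was −0.21 for Pdgfrb and −0.26 for Slc7a5. In male libraries it was −0.12 for Pecam1 and −0.23 for Slc7a5, and in female libraries −0.24 for Col3a1. Spearman's rho between log2 fold change and transcript length was −0.57 across the members and −0.30 across all genes with a length.

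**Figure D4:**
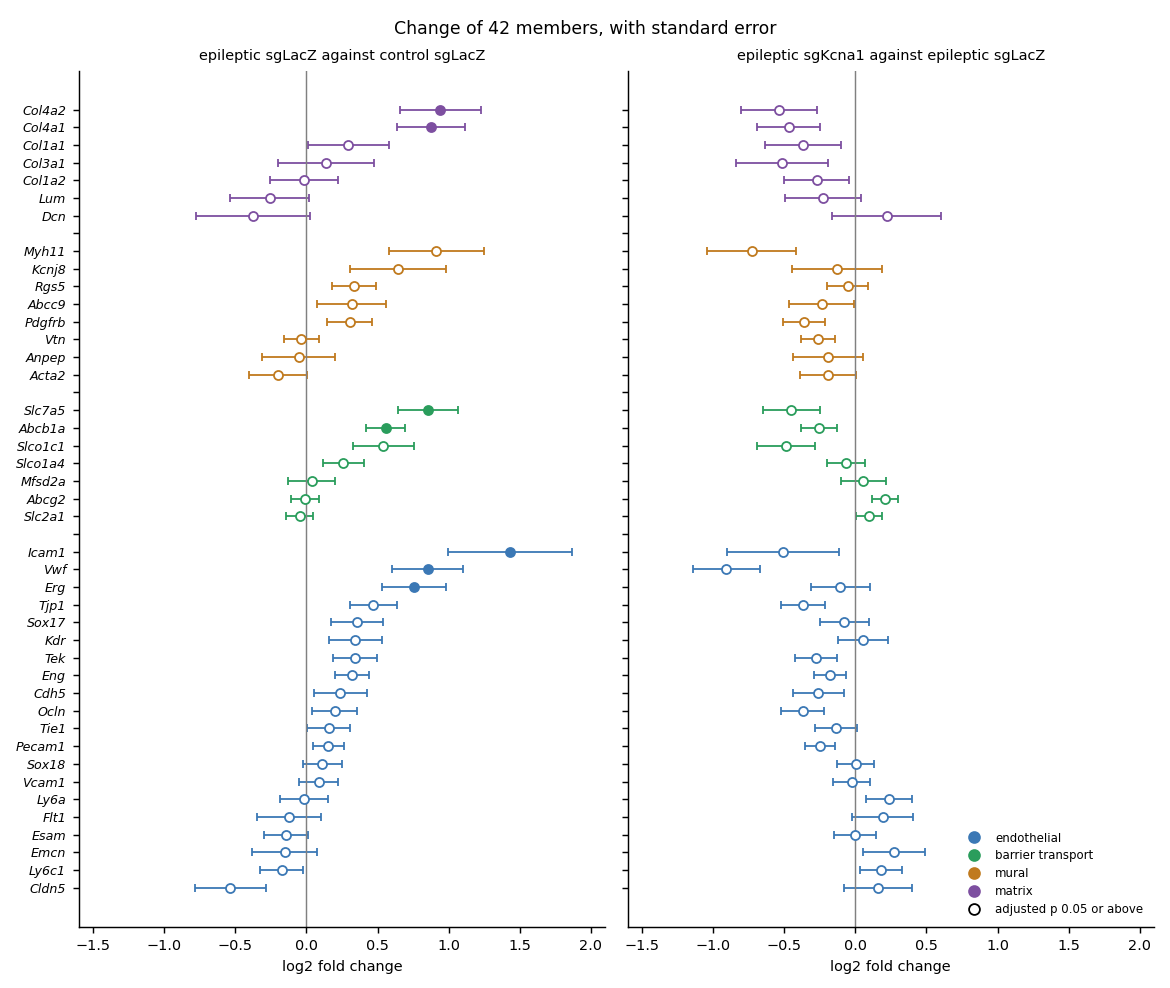
Log2 fold change with standard error of the 42 members for epileptic sgLacZ against control sgLacZ (left) and epileptic sgKcna1 against epileptic sgLacZ (right), by class, where filled points have an adjusted p below 0.05. The 7 filled points are all on the left panel and all above 0. The panels share the epileptic sgLacZ libraries.

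Between epileptic sgKcna1 and control sgLacZ, no member and no gene was called with edgeR (0.0%, 1192 genes at an unadjusted p below 0.05). DESeq2 called 39 genes and limma-voom 71, none of them a member. At an unadjusted p below 0.05, 4 members were higher and 1 was lower (11.9% of 42), where the shares of all genes were 6.77% in all, 4.29% higher and 2.48% lower. Erg was the one member without overlap, at 3.22 to 4.52 CPM (median 3.58) in the 6 sgKcna1 libraries against 1.73 to 3.19 CPM in controls (log2 fold change 0.65 ± 0.22, unadjusted p = 0.00901, adjusted p = 0.674), where 1.14% of all genes did not overlap. Kdr was at 8.21 to 13.3 CPM (median 12.3) against 6.58, 8.19, 8.60, 9.40 and 9.96 CPM in controls (0.40 ± 0.18, adjusted p = 0.723), and Icam1 at 0.722 to 3.37 CPM with a median of 1.47 (0.93 ± 0.44, adjusted p = 0.734).

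All 7 transporters had positive values against control, between 0.05 and 0.41, none called. Abcb1a, at 13.3 to 17.6 CPM with a median of 16.8 (0.30 ± 0.14, adjusted p = 0.711), Abcg2 (0.20 ± 0.10, adjusted p = 0.754) and Slc7a5 (0.41 ± 0.21, adjusted p = 0.766) each had 5 of 6 sgKcna1 libraries above every control. In female libraries alone the change of Slc7a5 was 0.08. Vtn, at 83.3, 91.2, 109, 109.9 and 116 CPM in controls, had 3 of 6 sgKcna1 libraries below them all (−0.30 ± 0.12, adjusted p = 0.695). Acta2 was at 9.32 to 15.8 CPM (median 12.7) against 11.8, 12.6, 15.6, 17.2 and 25.3 CPM (−0.39 ± 0.20, adjusted p = 0.766). Rgs5 was at 40.4 to 64.8 CPM (median 50.6) in sgKcna1, with 2 of 6 above all controls (0.28 ± 0.15, adjusted p = 0.766). Lum, the gene of the fibroblast proteoglycan lumican, was at 2.69 to 11.2 CPM (median 5.20), with 4 of 6 below controls of 5.60, 7.80, 8.50, 9.49 and 10.3 CPM (−0.48 ± 0.28, adjusted p = 0.766). Col4a1 and Col4a2 both had log2 fold changes of 0.41 (SE 0.24 and 0.29, adjusted p = 0.766 and 0.782). This comparison shares its control libraries with the first one and its sgKcna1 libraries with the second.

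Pairs of members whose products work together, or whose genes lie side by side, were compared across the 17 libraries as deviations of log2 CPM from the group mean (5 pairs, permutation test with 100000 pairings, Benjamini-Hochberg over the pairs). Ly6c1 and Ly6a, neighbouring surface antigen genes on chromosome 15, were closely correlated (Pearson's r = 0.89, adjusted p = 1e-04, where the raw p was the smallest these permutations can give; Spearman's rho = 0.81, adjusted p = 5e-04), with r = 0.76 without the 2 libraries farthest from the median. Col1a1 and Col1a2, the chains of type I collagen, had r = 0.83 (adjusted p = 1.5e-04) and rho = 0.82 (adjusted p = 5e-04), and r = 0.90 without the 2 farthest libraries. Col4a1 and Col4a2 had r = 0.61 (adjusted p = 0.0199) and rho = 0.64 (adjusted p = 0.0117), and r = 0.49 without the 2 farthest. Kcnj8 and Abcc9, the subunits of the vascular KATP channel, did not correlate detectably (r = −0.24, adjusted p = 0.399; rho = −0.25, adjusted p = 0.409), and neither did Pecam1 and Cdh5 (r = 0.01, adjusted p = 0.983; rho = 0.02, adjusted p = 0.941). Without the 2 libraries farthest from the median, r was 0.02 for Kcnj8 and Abcc9 and 0.13 for Pecam1 and Cdh5. Kcnj8 was counted at 2.13 to 3.25 CPM in controls, 2.96 to 5.24 CPM in epileptic sgLacZ and 0.560 to 5.28 CPM in sgKcna1, and Abcc9 at 1.96 to 3.60, 2.42 to 4.60 and 1.98 to 4.62 CPM, so that both rest on low counts. Reads shared between Ly6c1 and its near-identical neighbour Ly6c2 can be lost from its count. Acta2 and Tagln could not be paired, since Tagln was not tested. Sex and length slope differ between libraries of 1 group, and their part in these correlations was not tested.

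**Figure D5:**
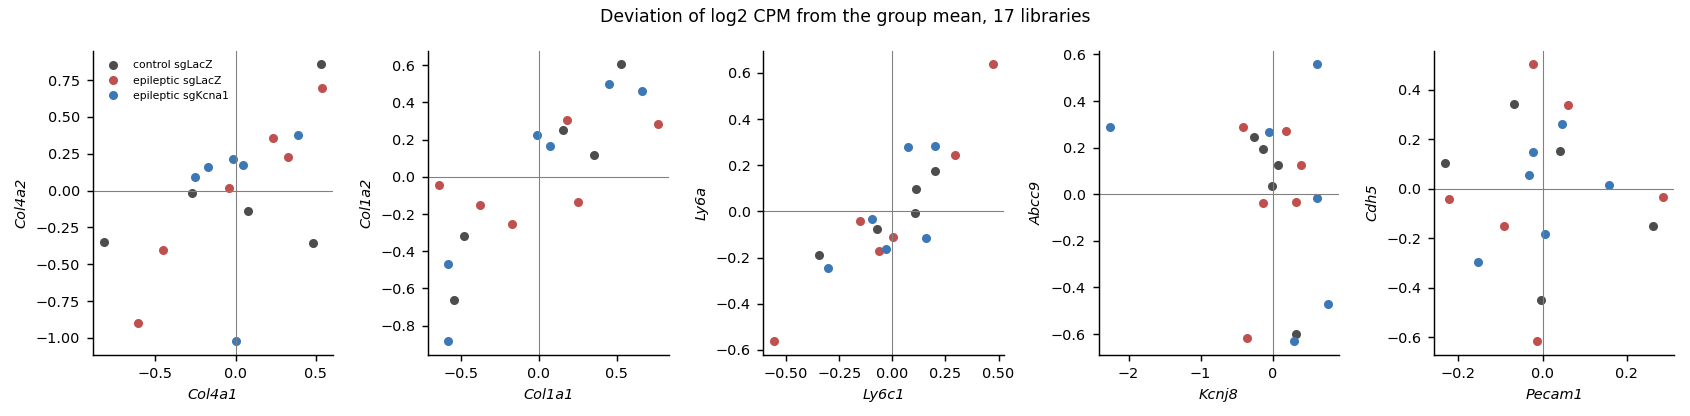
Deviation of log2 CPM from the group mean for 5 pairs of members in the 17 libraries, coloured by group. Ly6c1 and Ly6a, Col1a1 and Col1a2, and Col4a1 and Col4a2 rise together, with r of 0.89, 0.83 and 0.61, while 1 sgKcna1 library lies far to the left in Kcnj8.

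Other genes linked to the vessel wall were read from lists of the same kind. For epileptic sgLacZ against control sgLacZ, their shares are to be set against those of all genes. These were 11.0% called, 7.26% called higher and 34.7% at an unadjusted p below 0.05. The lists were chosen with earlier results of these data known, so their shares are a description only. Bulk tissue does not tell in which cells, vascular or other, these genes were expressed. In epileptic sgLacZ against control sgLacZ, 8 of 17 further basement membrane genes (47.1%) were called higher and none lower, among them Agrn, the proteoglycan agrin (56.5 ± 11.4 CPM in controls, 106.2 ± 33.1 CPM in epileptic sgLacZ, SD, log2 fold change 0.91 ± 0.23, adjusted p = 0.0332), Nid2, which links laminin to collagen IV (1.51 ± 0.38, adjusted p = 0.0333) and Timp3, a metalloproteinase inhibitor (2.03 ± 0.40, adjusted p = 0.031). Nid2 and Timp3 are uncertain, as counts summed over strands were 1.71 and 5.61 times the unstranded count. Timp3 also varied widely in epileptic sgLacZ, at 26.8 ± 19.7 CPM (SD) against 6.55 ± 1.11 CPM in controls. The median log2 fold change of the basement membrane list was 0.69. The limits of the member calls hold here too, since no gene of the series was called in 7 of 17 fits without 1 library. Over all genes, those longer than the median member had a median log2 fold change of 0.20 and the shorter ones of −0.04. Values of these lists with the length trend removed or the unmapped share as covariate are not given here. Of 24 tested genes of VEGF, angiopoietin, Notch and TGF-beta signalling, 3 (12.5%) were called, all higher: Notch1 (2.52 ± 0.48, adjusted p = 0.031, with counts over strands 3.67 times the unstranded count), Notch3, the mural Notch receptor (1.27 ± 0.34, adjusted p = 0.0366), and the ligand gene Jag2 (0.46 ± 0.13, adjusted p = 0.0391). Notch1 was at 9.98 ± 7.99 CPM (SD) in epileptic sgLacZ and 1.72 ± 0.695 CPM in controls. Of 19 genes of Wnt signalling at the barrier 1 (5.26%) was called, the Wnt target Apcdd1 (0.54 ± 0.16, adjusted p = 0.0407). Of 14 further transport genes 3 (21.4%) were called, all higher: Lrp8 (0.61 ± 0.16, adjusted p = 0.0347), Abcc4 (0.74 ± 0.21, adjusted p = 0.0404) and Lrp1 (0.58 ± 0.18, adjusted p = 0.0455). None of 24 further endothelial genes and none of 19 further mural genes was called. At an unadjusted p below 0.05 stood 9 of these endothelial genes (37.5%), 6 higher and 3 lower. The same held for 1 mural gene (5.26%), Higd1b, which was lower (−0.83 ± 0.31, adjusted p = 0.0752). Of the 19 further mural genes 7 had positive and 12 negative values, with a median of −0.13, unlike the positive median of the mural members. In epileptic sgKcna1 against epileptic sgLacZ none of these lists had a gene called, and the basement membrane list had a median log2 fold change of −0.62 with 10 of 17 genes (58.8%) lower at an unadjusted p below 0.05, where the share of all genes was 10.5%. Against control sgLacZ its median was 0.01.

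Markers of other cells are given for epileptic sgLacZ against control sgLacZ, where 11.0% of all genes were called and 7.26% were called higher. Of the 8 neuronal markers 1 (12.5%) was called, Slc17a7, the vesicular glutamate transporter gene of excitatory neurons, which was higher (698 ± 80.8 CPM in controls, 1189 ± 359 CPM in epileptic sgLacZ, log2 fold change 0.77 ± 0.21, adjusted p = 0.0366). The synaptic gene Snap25 (−0.26 ± 0.09, adjusted p = 0.0609) and the nuclear marker gene Rbfox3 (−0.31 ± 0.13, adjusted p = 0.0952) had negative values that were not called. Haemoglobin gene Hba-a1 was lower (166 ± 46.1 CPM in controls, 74.3 ± 38.4 CPM in epileptic sgLacZ, log2 fold change −1.16 ± 0.33, adjusted p = 0.0404), and the 3 blood genes matched summed to 159 to 321 CPM and 46.9 to 191 CPM. Of the others, Hba-a2 had a negative value (−1.39 ± 0.47) and Alas2 a positive one (0.27 ± 0.42), neither called. Within epileptic sgLacZ the blood sum was lowest in replicate 4, which had the highest length slope, and highest in replicate 5, which had the lowest. The part of transcript length was not tested. Of the 7 astrocyte markers, 2 (28.6%) were higher, among them Gfap (0.60 ± 0.18, adjusted p = 0.0447), and the list summed to 2098 to 2444 CPM in controls and 2363 to 3131 CPM in epileptic sgLacZ. Of the 8 microglial markers 1 (12.5%), Csf1r, was higher (0.38 ± 0.10, adjusted p = 0.0356, with counts over strands 1.37 times the unstranded count). This list had 4 positive and 4 negative values, with a median of 0.06. Of the 14 leptomeningeal genes tested 2 (14.3%) were higher, Col6a1 (1.82 ± 0.44, adjusted p = 0.033) and Bgn (0.74 ± 0.23, adjusted p = 0.0455). Crabp2 had a negative value that was not called (−0.83 ± 0.28, adjusted p = 0.0599). The leptomeningeal list had 7 positive and 7 negative values, with a median of 0.001. None of the 12 choroid plexus genes and none of the 6 oligodendrocyte genes was called. The part of these cells in the values of the vascular genes was not tested.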

How the data were processed

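Hippocampal RNA libraries were made with a TruSeq kit, and the authors aligned reads with STAR 2.7 to mm10 and deposited, for each library, counts of reads per gene (unstranded, and for each of the 2 strands), per the labels and the study's methods. The unstranded counts were used. Rows of unmapped, multimapping, ambiguous or gene-free reads, 22.1% to 54.5% of all reads, were left out. Symbols were looked up by Ensembl gene ID, and RefSeq gave synonyms for genes held under another name. Transcript length was that of the longest protein-coding transcript in a GENCODE annotation of the genome build before mm10. It was known for 83.0% of genes tested.

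All 17 libraries were fitted together in edgeR 4.0.16 (R 4.3.3) with TMM normalization, filterByExpr by group, 1 coefficient per group and no covariate. Glm quasi-likelihood tests were two-sided, and adjusted p-values cover all 17615 genes tested. CPM values use TMM library sizes, and log2 CPM a prior count of 2. Alternatives used DESeq2 1.42.0, limma 3.58.1, other counts, filters, covariates and samples. On simulated data for epileptic sgLacZ against control sgLacZ (17421 genes), 69% of genes changed by 1 on the log2 scale were called, and 98% of genes changed by 2. Each change was given to 100 genes with a mean of at least 2 CPM. The simulated libraries held no trend with transcript length or unmapped reads, so these shares are not the power of the real comparison. Counting floors cover counting error only.

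Libraries were grouped by their labels. Samples of 1 group are counted as replicates, and if they were not separate animals the p-values measure technical spread only. No pair of libraries within a group agreed within sampling noise (chi-square per degree of freedom 8.67 to 220). Sex was read from Xist and Y-linked genes. Members and lists were chosen with earlier results of these data known. Named are members called (up to 12 per comparison), the 3 smallest p in each of 4 lists and comparison, genes of the pairs, and up to 3 genes of each other list. Animals without epilepsy that received sgKcna1 were not analysed here.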

Additional observations from a re-analysis of the deposited data

Results flagged for a closer look

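In 10 of 126 groups of values, 1 library stood far from the rest of its group for a member. Chance flags about 1 group in 20. Of these, 5 were in epileptic sgKcna1 replicate 12, the library with the most unmapped reads: Cldn5 at 164 CPM (next 92.1) and Flt1 at 109 CPM (next 47.7) were high, while Tie1 at 7.47 CPM (next 11.6), Abcb1a at 13.3 CPM (next 16.5) and Col4a2 at 5.88 CPM (next 12.8) were low. Epileptic sgLacZ replicate 4, with the fewest unmapped reads, was high for Eng at 27.9 CPM (next 22.5) and for Pdgfrb at 23.7 CPM (next 15.9). Control sgLacZ replicate 23 was low for Sox17 at 4.60 CPM (next 7.09) and for Dcn at 42.8 CPM (next 109.3), and control sgLacZ replicate 15 was high for Col4a2 at 16.3 CPM (next 8.86).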

How the results depend on the processing

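Between epileptic sgLacZ and control sgLacZ, where 1940 genes and 7 members were called, the gene count was 3686 (9 members) with DESeq2, 3045 (9 members) with these 2 groups alone, 7301 (and 14 members, 13 higher and Cldn5 lower) with limma-voom and quality weights, 516 (2 members) with sex and 428 (1 member) with the share of unmapped reads as covariate. The cause of these differences was not tested. Size factors by the median ratio, no filter and both strands added kept the member count at 7, 6 and 6. The following were chosen after seeing the data. With the length trend removed, 4 members were called and the medians of transport and mural members were 0.10 and 0.11. Male libraries alone gave 1 member, with medians of 0.13 for mural and −0.32 for matrix members, and female libraries alone gave 0 genes and 0 members, as did leaving out libraries with both Xist and Y-linked reads, where fewer samples were tested. In that last fit all controls were male and most epileptic sgLacZ libraries were female. Leaving out 1 library gave 0 to 5526 genes and 0 to 11 members.

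Between epileptic sgKcna1 and epileptic sgLacZ, where 0 genes were called, the count was 143 (1 member) with DESeq2, 12 with limma-voom, 1 with no filter, 1 in male libraries and 0 to 1508 (0 to 1 member) without 1 library, the 1508 and Vwf arising without epileptic sgLacZ replicate 5. Against control sgLacZ it was 39, 71, 266 with the unmapped covariate, 14 in male libraries and 0 to 14 without 1 library. There the matrix median, −0.15, was −0.58 in male, 0.30 in female and −0.70 without libraries of mixed Xist and Y-linked reads, where the mural median, 0.01, was −0.26. In that last fit the control and sgKcna1 libraries left were all male. Acta2 turned from −0.39 to 0.0504 in female libraries. The correlation of Pecam1 and Cdh5 turned to −0.0125 with both strands added, and ranged from −0.0825 to 0.096 leaving out 1 library. Of 1044 values of single named members under other fits, 929 kept direction and side of the threshold and 103 were no longer called. Another 11 became called and 1, that of Acta2, turned. The 103 all belong to the 7 members called between epileptic sgLacZ and control sgLacZ, since no other value could lose a call. Each of these 7 kept its call in 5 to 10 of 12 alternative fits and in 4 to 10 of 17 fits without 1 library. No paired analysis was possible because the groups share no replicate numbers. Depth limits the low members most, since 3 reads are 0.106 to 0.253 CPM and Icam1 was counted at 7 to 99 reads.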

Other observations

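Within the endothelial list, the tight junction genes did not share a sign in epileptic sgLacZ against control sgLacZ: the log2 fold change was −0.54 ± 0.25 for Cldn5, 0.20 ± 0.16 for Ocln and 0.47 ± 0.16 for Tjp1. These values follow the order of transcript length, which is 1414, 4052 and 7049 bases. The part of length in them was not tested. None of these genes was called in the edgeR fit of all 17 libraries. DESeq2 and edgeR on the 2 groups alone called Tjp1, and limma-voom with quality weights called Tjp1 higher and Cldn5 lower. The angiopoietin receptor gene Tek (0.34 ± 0.16) and its partner Tie1 (0.16 ± 0.15), the TGF-beta co-receptor gene Eng (0.32 ± 0.12, adjusted p = 0.0734) and the transcription factor genes Sox17 (0.35 ± 0.18) and Sox18 (0.11 ± 0.14) were not called in that edgeR fit of all libraries either, and of these Sox17 was called with limma-voom. Among members tested, spread between libraries of 1 group was widest for Dcn in epileptic sgKcna1, at 18.3 to 194 CPM (coefficient of variation 65.7%), and narrowest for Ocln in epileptic sgLacZ, at 16.2 to 19.3 CPM (6.29%).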
